A study of Mus musculus with 6 samples.

Results

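Chemokines and their receptors were followed as a family of 52 genes among the 18193 genes named on the arrays. Members were chosen by name alone, as genes whose symbol is Ccl, Cxcl, Ccr, Cxcr or Xcr with a digit, plus Cx3cl1, Xcl1, Ackr1, Ackr2 and Ackr3. Affymetrix arrays measured RNA of the whole testis at an age of 12 weeks in 3 jsd and 3 SCARKO-jsd samples, 6 in all, numbered 1 to 3 in each group. Both groups carry jsd, a mutation of Utp14b that stops spermatogonia from maturing, so that adult tubules hold hardly any germ cells beyond that stage. SCARKO-jsd mice carry in addition a conditional knockout in Sertoli cells, and other labels spell the same genotype SCARO-jsd and SCARCO-jsd. The labels used here name no Cre line and do not tie each RNA to a mouse, so p-values measure the spread between these samples. The comparison asks which testis transcripts the added knockout alters once most germ cells are missing, and every difference below is SCARKO-jsd minus jsd.

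Chemokines are small secreted proteins that guide migrating cells along gradients, and they are grouped by the spacing of their first cysteines into CC, CXC, XC and CX3C classes. They act through receptors with a bundle of membrane helices that signal through inhibitory G proteins. Atypical receptors bind the same ligands without that signal, and some, Ackr2 and Ackr3 among them, remove those ligands from the tissue. In the testis, Cxcl12 made by Sertoli cells and its receptor Cxcr4 on germ cells are known for holding spermatogonial stem cells in their niche. CC chemokines are better known there for drawing monocytes and macrophages into the interstitium.

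The promoters of 5 members that the results turn on are shown first, 250 bases before to 50 bases after the annotated start, from RefSeq (GRCm38.p6), on the strand of the gene. They are Cxcl12, its receptors Cxcr4 and Ackr3, Ackr2, the member with the largest difference, and Cxcl1, an inducible chemokine. Capitals mark the letters of 4 motifs searched on both strands. These are the consensus kB site, bound by NF-kB, AGAACA, a core of steroid hormone response elements, ACGTG, the core bound by hypoxia-inducible factors, and TATAAA, the TATA box. Matches on the opposite strand overlap one another in the Cxcr4 (TATAAA), Cxcl1 and Ackr2 (kB) promoters, and different motifs do not overlap.

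Cxcl12, chr6:117168285-117168584, plus strand: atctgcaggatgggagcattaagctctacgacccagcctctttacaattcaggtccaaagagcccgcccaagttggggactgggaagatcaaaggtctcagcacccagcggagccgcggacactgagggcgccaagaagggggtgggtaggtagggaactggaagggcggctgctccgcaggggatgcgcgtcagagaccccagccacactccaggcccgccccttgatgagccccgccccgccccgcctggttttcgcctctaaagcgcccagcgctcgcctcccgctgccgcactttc
Cxcr4, chr1:128592250-128592549, minus strand: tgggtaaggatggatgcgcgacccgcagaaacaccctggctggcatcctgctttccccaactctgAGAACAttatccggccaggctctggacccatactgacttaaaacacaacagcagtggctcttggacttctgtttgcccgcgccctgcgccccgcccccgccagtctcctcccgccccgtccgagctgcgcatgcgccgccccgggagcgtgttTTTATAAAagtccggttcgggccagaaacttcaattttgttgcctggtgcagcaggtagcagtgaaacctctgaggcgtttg
Ackr3, chr1:90203730-90204029, plus strand: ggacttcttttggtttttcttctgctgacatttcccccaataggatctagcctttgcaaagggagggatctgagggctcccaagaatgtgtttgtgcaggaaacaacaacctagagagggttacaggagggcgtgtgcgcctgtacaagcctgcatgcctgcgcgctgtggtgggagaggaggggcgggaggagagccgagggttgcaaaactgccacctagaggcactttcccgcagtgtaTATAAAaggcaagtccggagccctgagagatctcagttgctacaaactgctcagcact
Ackr2, chr9:121898105-121898404, plus strand: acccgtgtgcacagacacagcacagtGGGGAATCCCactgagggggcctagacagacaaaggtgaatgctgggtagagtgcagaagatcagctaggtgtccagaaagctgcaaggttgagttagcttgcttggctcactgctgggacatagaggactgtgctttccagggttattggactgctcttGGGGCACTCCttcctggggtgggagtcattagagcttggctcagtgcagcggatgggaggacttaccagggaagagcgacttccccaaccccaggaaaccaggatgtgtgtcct
Cxcl1, chr5:90890995-90891294, plus strand: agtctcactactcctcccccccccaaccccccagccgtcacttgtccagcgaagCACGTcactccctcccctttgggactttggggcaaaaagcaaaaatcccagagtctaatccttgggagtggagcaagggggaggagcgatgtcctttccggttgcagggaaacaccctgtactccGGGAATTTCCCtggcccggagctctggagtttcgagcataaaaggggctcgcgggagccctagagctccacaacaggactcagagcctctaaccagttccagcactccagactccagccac

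Promoters were listed for 39 of the 52 members. The kB consensus was in the promoters of 12 of these 39 genes and in 8.46% of all 32851 promoters listed. Among members above the dim limit it was in those of Ackr2, Cxcl1 and Ccl27a. AGAACA was in 7 of the 39, among them Cxcr4, and in 19.0% of all promoters. ACGTG was in 6 of the 39, among them Cxcl1, and in 19.6% of all, and TATAAA was in 13 of the 39 and in 13.6% of all. The Cxcl12 window held none of the 4 motifs. A match describes letters in this window only and was not tied to a binding measurement.

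None of the chemokine or receptor genes passed the test between the genotypes. Of the 52 members, 16 lay above the limit for dim genes (a mean log2 expression of 6.64 over the 6 arrays, under which the lowest 40% of all genes fall) and were tested. By limma, 0 of these 16 had a Benjamini-Hochberg adjusted p under 0.05, while 3.57% of all 10916 genes tested did (1.78% higher and 1.80% lower with the knockout). At an unadjusted p under 0.05 there were 3 of 16, Ackr2, Cxcr4 and Cxcl13, a share close to the 18.0% of all genes tested. The groups' values were fully separate for 4 of the 16, Ackr2, Cxcr4, Cxcl13 and Cx3cl1, and for 24.6% of all genes tested. Of these, Cxcl13 lay under the dim limit in jsd and was tested only through its SCARKO-jsd values, so its place in both counts is no support. The median log2 fold change of the 16 was 0.017, against 0.043 over all genes tested, with 9 members higher and 7 lower. Cxcl17, one of the 7, lay under the dim limit in SCARKO-jsd and was tested only through its jsd values. The median size of the difference, whatever its sign, was 0.14 for the members and 0.13 for all genes tested. These shares and medians lie near those of all genes tested and show nothing particular to the family.

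**Figure D1:**
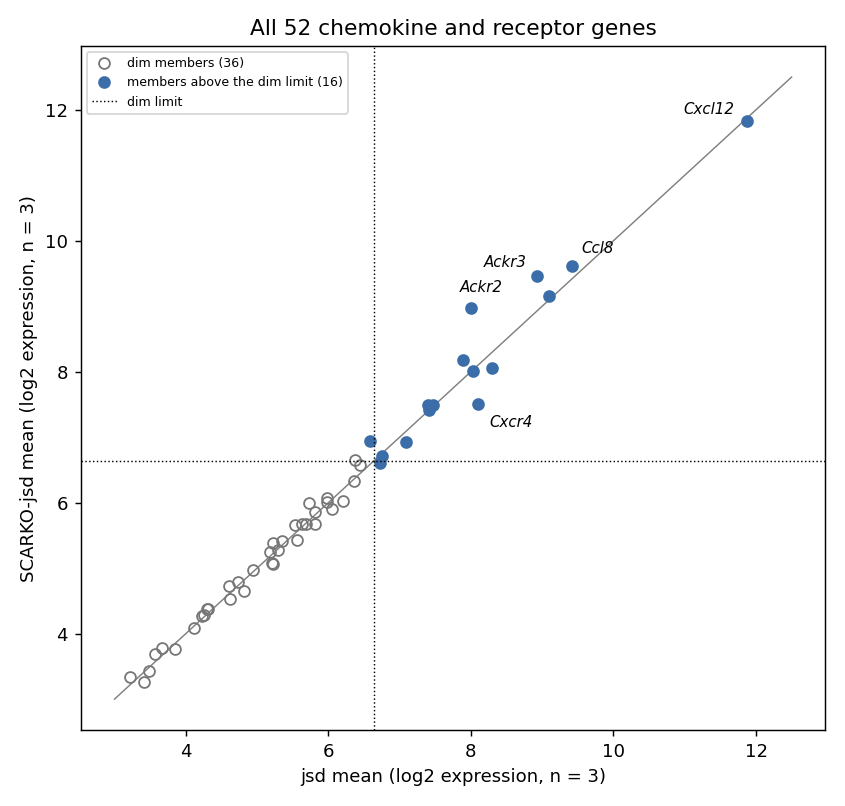
Mean log2 expression in SCARKO-jsd (vertical axis) against jsd testes (horizontal axis, n = 3 arrays each) for all 52 chemokine and receptor genes, with the dim limit as dotted lines and equal values on the solid line. Filled points are the 16 members above the limit. Ackr2 and Ackr3 sit above the line and Cxcr4 below it, and the 36 dim members lie along it.

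The array SCARKO-jsd 2 was unlike the rest. Across genes, which are not independent replicates, its best correlation with another array was 0.973, where other arrays reached up to 0.994, and its gap between 3' and 5' probe sets of beta-actin was 1.66 log2 units, against 0.70 to 0.98. The same gap for Gapdh was 0.64, against -0.285 to -0.10 on the other arrays. The median of its values was 6.26, against 6.40 to 6.41 on the others. SCARKO-jsd 2 was the highest SCARKO-jsd array for 10 of the 16 members. Without it, 0 of 16 members passed by limma, where 7.04% of all genes did, and the same 3 of 16 (Ackr2, Cxcr4 and Cxcl13) had an unadjusted p under 0.05, against 21.6% of all genes. Markers of the testis cell types were well above the dim limit, with all 20 measured Sertoli genes, 8 of 8 Leydig genes and 10 of 10 peritubular myoid genes. For macrophages 18 of 19 lay above it. Only 1 of 13 T, B and NK cell markers (Cd4) and 1 of 12 neutrophil and mast cell markers (Camp) did. Of 18 markers of meiotic cells and spermatids, 11 were dim. Of the other 7, the meiotic genes Sycp3 and Meig1 rose and 5 did not pass, where 3.57% of all genes tested were called. The mean of these 7 was 6.93 to 7.14 in jsd and 7.59 to 7.88 in SCARKO-jsd arrays. Tex101, one of the 7, had a jsd mean of 6.53, under the dim limit. It was counted only through its higher SCARKO-jsd values. The part of these cell types in the results below was not tested. In RNA of whole testes fewer cells of a type and less RNA per cell cannot be told apart. Rhox5, an androgen-dependent homeobox gene of Sertoli cells, was 10.26, 10.43 and 9.74 in jsd and 5.44, 6.11 and 5.84 in SCARKO-jsd 1, 2 and 3.

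The Cxcl12 axis had 3 measured members above the limit. Cxcl12, the ligand, read 11.90, 12.16 and 11.57 on the jsd arrays, in the order 1 to 3, and 11.90, 11.96 and 11.63 on the SCARKO-jsd arrays with its brightest probe set (1448823_at, log2 expression). The groups overlapped throughout, and array 3 was the lowest in both. The difference was -0.05 ± 0.16 (SE; limma, Benjamini-Hochberg adjusted p = 0.908), and its 95% confidence interval ran from -0.43 to 0.33. Its other bright probe set, 1417574_at, was 9.63, 10.01 and 9.56 in jsd and 10.34, 10.34 and 10.09 in SCARKO-jsd testes. There the groups did not overlap, and the difference was 0.53 ± 0.15 (SE), with an adjusted p of 0.163 by limma over every bright probe set, of which 1.39% were called. The remaining Cxcl12 probe set was dim and gave -0.02.

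The probe sets of Cxcl12 therefore differed in what they showed, and that contrast was measured within each array. The level on 1417574_at minus that on 1448823_at was -2.27, -2.16 and -2.01 in jsd and -1.56, -1.62 and -1.53 in SCARKO-jsd testes. The gap was narrower in every SCARKO-jsd array than in any jsd array, by 0.57 ± 0.09 (SE), with a 95% confidence interval from 0.35 to 0.80. Over the 4646 genes with a pair of bright probe sets, limma gave it a Benjamini-Hochberg adjusted p of 0.152, so it did not pass, and 0.0430% of these genes did. Groups did not overlap for 15.4% of those genes. The narrowing was 0.60 without SCARKO-jsd 2 and lay between 0.51 and 0.64 with any 1 array left out. This comparison was chosen after the values of Cxcl12 were seen. The files do not say which part of the transcript each probe set reads.

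Cxcr4, the signalling receptor for Cxcl12, was 8.21, 8.41 and 7.68 in jsd and 7.22, 7.66 and 7.64 in SCARKO-jsd testes. All jsd arrays lay above all SCARKO-jsd arrays, although jsd 3 exceeded SCARKO-jsd 2 and 3 by little. The means were 8.10 ± 0.38 and 7.51 ± 0.25 (SD, n = 3), a difference of -0.60 ± 0.20 (SE) or 1.51-fold. It did not pass (limma, Benjamini-Hochberg adjusted p = 0.181), and the unadjusted 95% confidence interval ran from -1.07 to -0.12. With any 1 array left out the difference lay between -0.80 and -0.44. Cxcr4 has 1 probe set. Cxcr4 is carried by spermatogonia and by leukocytes, so their markers are given beside it. The mean over 12 markers of undifferentiated spermatogonia was 8.41 to 8.62 in jsd and 8.58 to 8.90 in SCARKO-jsd arrays. By limma 2 of the 12 rose while 2 fell, and 3.57% of all genes tested were called. At an unadjusted p under 0.05 there were 10 of the 12, 7 higher and 3 lower, against 18.0% of all genes tested. The list median was 0.44. Lin28a, one of the 7, had a jsd mean of 6.60, under the dim limit. It was tested only through its higher SCARKO-jsd values, so its place in these values is no support. The mean over 18 macrophage markers was 9.94 to 10.02 in jsd and 9.78 to 10.06 in SCARKO-jsd arrays, and 0 of 18 passed by limma, with 1 at an unadjusted p under 0.05. The part of either cell type in the Cxcr4 difference was not tested.

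Ackr3, the atypical receptor that takes up Cxcl12, was 9.005, 9.10 and 8.67 in jsd and 9.47, 9.97 and 8.93 in SCARKO-jsd testes. SCARKO-jsd 3 lay below jsd 1 and 2, so the groups overlapped. The difference was 0.53 ± 0.25 (SE; limma, Benjamini-Hochberg adjusted p = 0.319), with a 95% confidence interval from -0.05 to 1.11. It was 0.28 without SCARKO-jsd 2. None of the 3 genes of this axis passed the test.

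Ackr2 had the largest difference in the family. This atypical receptor binds many inflammatory CC chemokines and delivers them for breakdown. It was 8.32, 8.21 and 7.46 in jsd and 8.99, 9.27 and 8.66 in SCARKO-jsd 1, 2 and 3. Every SCARKO-jsd array was above every jsd array, and jsd 3 was the lowest of all. The means were 7.999 ± 0.47 and 8.97 ± 0.31 (SD, n = 3), a difference of 0.97 ± 0.25 (SE) or 1.97-fold. It missed the threshold (limma, Benjamini-Hochberg adjusted p = 0.0834), with an unadjusted 95% confidence interval from 0.40 to 1.55. With any 1 array left out the difference lay between 0.71 (without jsd 3) and 1.14.

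The other probe sets of Ackr2 ran the same way. On 1422112_at the values were 6.78, 7.02 and 5.82 in jsd and 7.39, 7.69 and 7.11 in SCARKO-jsd testes, a difference of 0.86. On the dim 1422111_at the difference was 0.50. Neither overlapped between groups, as on the brightest, 1437937_at. The gap between the 2 brightest Ackr2 probe sets differed by -0.12 ± 0.13 (SE; limma, Benjamini-Hochberg adjusted p = 0.790). Ackr2 is known from lymphatic endothelium. The marker list is of endothelium in general and holds no marker particular to lymphatic vessels. The mean over 10 endothelial markers was 7.68 to 7.996 in jsd and 7.78 to 8.22 in SCARKO-jsd arrays. Of these, Kdr fell by 0.79 ± 0.16 (SE; limma, Benjamini-Hochberg adjusted p = 0.0430), where 3.57% of all genes tested were called. The other 9 were higher without passing, for a list median of 0.20. Groups were fully separate for 2 of the 10, Kdr and Vwf (0.53), and for 24.6% of all genes tested. Emcn and Flt1, among the higher ones, had jsd means of 6.61 and 6.639, under the dim limit (6.642). They were tested only through their higher SCARKO-jsd values, so their place in these values is no support. The part of endothelial cells in the Ackr2 difference was not tested.

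**Figure D2:**
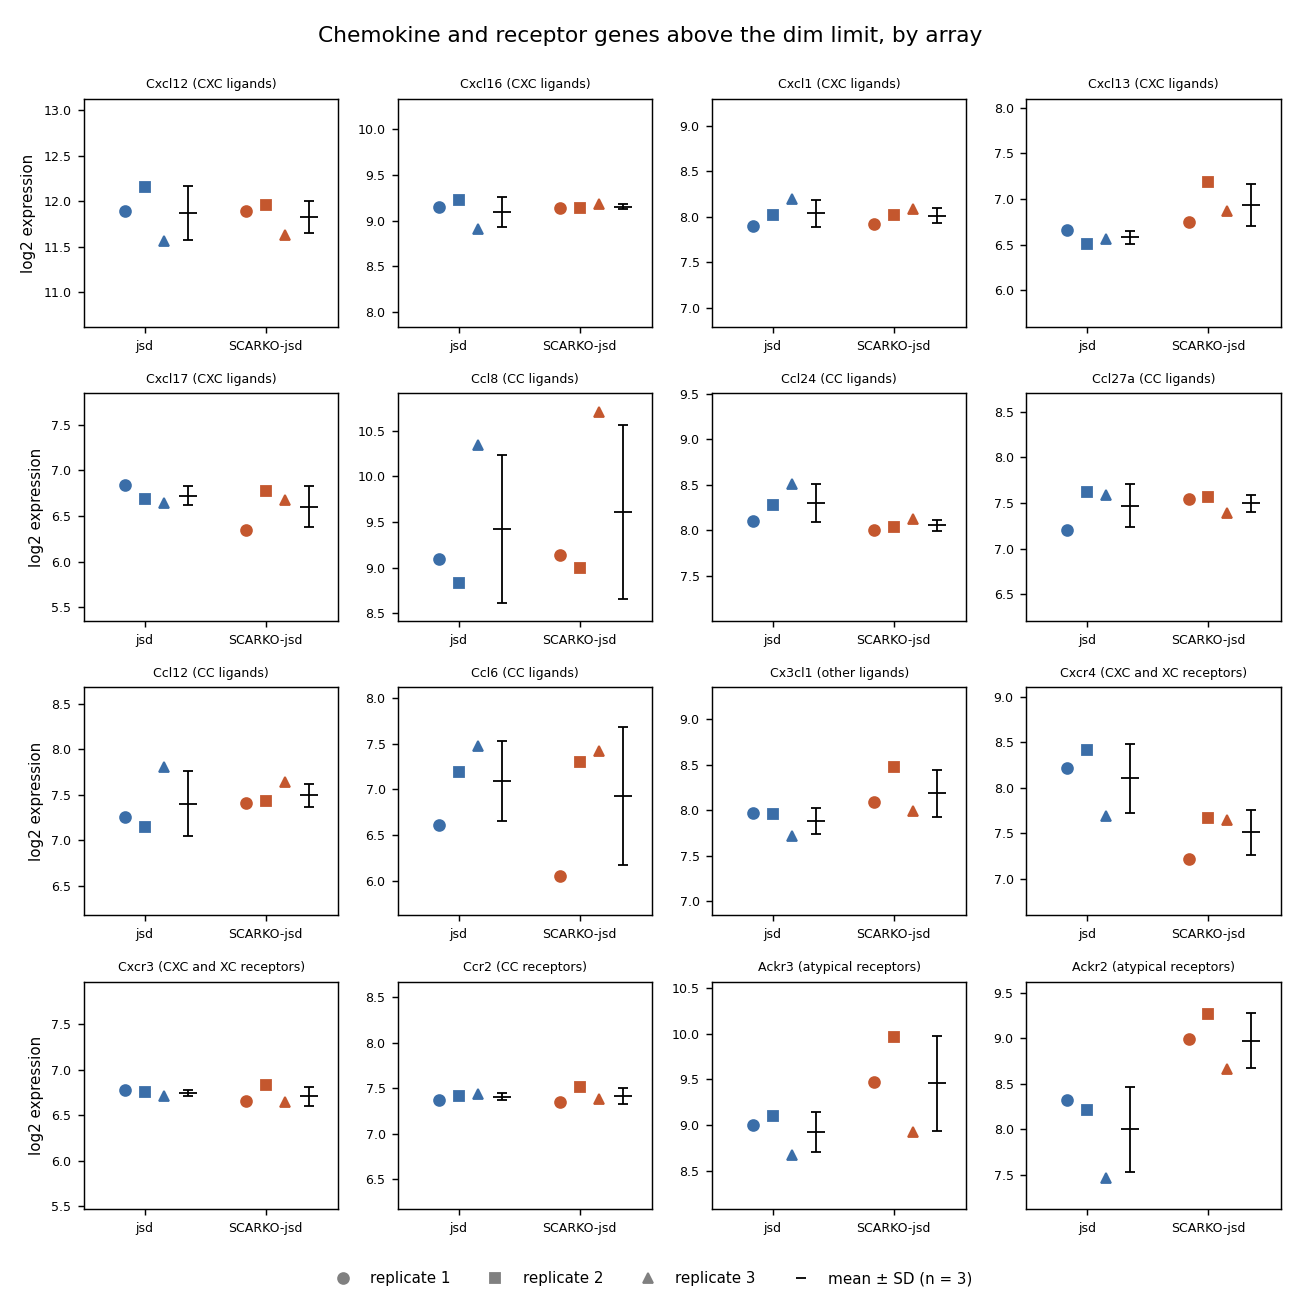
Log2 expression (vertical axes, each spanning at least 2.5 units) of the 16 chemokine and receptor genes above the dim limit in jsd (blue) and SCARKO-jsd (orange) testes, with 1 symbol per array and the mean ± SD (n = 3) beside them. The groups separate for Ackr2, Cxcr4, Cxcl13 and Cx3cl1, while Ccl8 is high in array 3 of both groups.

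**Figure D3:**
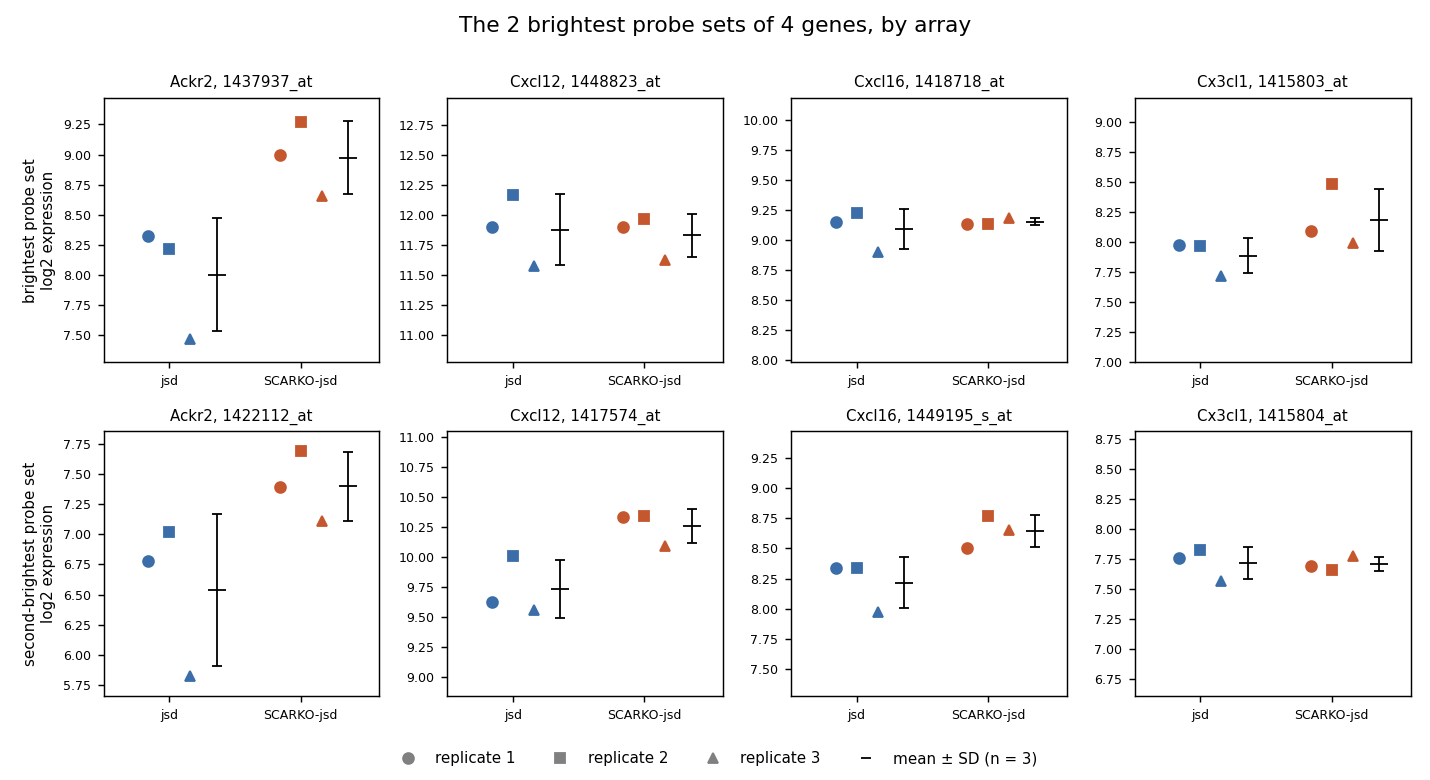
Log2 expression (vertical axes, 2.2 units each) on the brightest (top) and the next brightest probe set (bottom) of Ackr2, Cxcl12, Cxcl16 and Cx3cl1, by array, with mean ± SD (n = 3). Both Ackr2 probe sets are higher in SCARKO-jsd testes, while the probe sets of Cxcl12, Cxcl16 and Cx3cl1 differ from each other in what they show.

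None of the 5 CC ligands above the limit passed the test, and Ccl8 and Ccl6 varied widely within the groups. Ccl8 was 9.09, 8.83 and 10.35 in jsd and 9.13, 8.99 and 10.71 in SCARKO-jsd 1, 2 and 3. Array 3 of each group was more than 1 log2 unit above its companions, and the groups overlapped. The difference was 0.19 ± 0.53 (SE; limma, Benjamini-Hochberg adjusted p = 0.884), and its 95% confidence interval, from -1.05 to 1.42, spans 0.484-fold to 2.68-fold. Without SCARKO-jsd 3 it was -0.36. Ccl12, the next gene on chromosome 11 and a monocyte attractant, was 7.26, 7.15 and 7.81 in jsd and 7.41, 7.43 and 7.64 in SCARKO-jsd testes. Array 3 was again the highest in both groups, and the difference was 0.09 ± 0.18 (SE; adjusted p = 0.828 by limma).

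The mean over the 18 macrophage markers above the limit was 9.99, 10.02 and 9.94 on the jsd arrays and 9.95, 9.78 and 10.06 on the SCARKO-jsd arrays, so that array 3 was the lowest of its group in jsd and the highest in SCARKO-jsd. The labels give no batch, and what the arrays numbered 3 share beyond that number is not stated.

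Ccl6, made mainly by macrophages and other myeloid cells, was 6.61, 7.19 and 7.48 in jsd and 6.05, 7.30 and 7.43 in SCARKO-jsd testes. Array 1 was the lowest in both groups. The difference of -0.17 ± 0.38 (SE; limma, Benjamini-Hochberg adjusted p = 0.853) turned to 0.27 without SCARKO-jsd 1. Ccl24, an eosinophil attractant, was 8.10, 8.28 and 8.51 in jsd and 8.001, 8.04 and 8.12 in SCARKO-jsd testes. Only jsd 1 lay within the SCARKO-jsd range, and the difference was -0.24 ± 0.12 (SE; adjusted p = 0.336 by limma). Ccl27a, a chemokine of skin epithelium, ran from 7.20 to 7.63 in jsd and from 7.39 to 7.56 in SCARKO-jsd testes, a difference of 0.03. Its probe set (1434962_x_at) carries the suffix for probes that can bind related sequences.

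Among the 4 other CXC ligands above the limit, Cxcl13 alone had fully separate groups on its brightest probe set. This B cell attractant was 6.66, 6.51 and 6.57 in jsd and 6.75, 7.19 and 6.87 in SCARKO-jsd testes. The gap between jsd 1 and SCARKO-jsd 1 was small, and the jsd mean, 6.58, lay under the dim limit, so that Cxcl13 was tested only because its SCARKO-jsd values are higher. The difference was 0.36 ± 0.13 (SE; limma, Benjamini-Hochberg adjusted p = 0.191), and 0.23 without SCARKO-jsd 2. The dim probe set of Cxcl13 gave 0.06.

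Cxcl16, a membrane-anchored ligand that also acts as a scavenger receptor, was 9.15, 9.23 and 8.90 in jsd and 9.14, 9.14 and 9.18 in SCARKO-jsd testes on 1418718_at. The groups overlapped, with a difference of 0.06 ± 0.10 (SE; adjusted p = 0.805 by limma) and a 95% confidence interval from -0.18 to 0.30. On 1449195_s_at the values were 8.34, 8.34 and 7.97 in jsd and 8.50, 8.77 and 8.66 in SCARKO-jsd testes, a difference of 0.43 with no overlap. The gap between these probe sets differed by 0.37 ± 0.09 (SE; limma over the 4646 genes, adjusted p = 0.356), which did not pass.

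Cxcl1, a neutrophil attractant, ran from 7.90 to 8.19 in jsd and from 7.92 to 8.09 in SCARKO-jsd testes. The difference was -0.03 ± 0.10 (SE; adjusted p = 0.921 by limma), with a 95% confidence interval from -0.27 to 0.22. Both bright Cxcl1 probe sets (1441855_x_at and 1457644_s_at) can bind related sequences, and the remaining one, 1419209_at, was dim and gave -0.02. Cxcl17, a mucosal chemokine just above the limit, ran from 6.64 to 6.85 in jsd and from 6.35 to 6.78 in SCARKO-jsd testes, a difference of -0.12 ± 0.13 (SE; adjusted p = 0.669 by limma). Its SCARKO-jsd mean, 6.60, lay under the dim limit, so it was tested only through its higher jsd values.

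Cx3cl1, a membrane-bound ligand of endothelial and other cells, was 7.97, 7.96 and 7.72 in jsd and 8.09, 8.48 and 7.99 in SCARKO-jsd testes. The groups did not overlap, but SCARKO-jsd 3 was only just above jsd 1. The difference was 0.30 ± 0.15 (SE; limma, Benjamini-Hochberg adjusted p = 0.336), and 0.15 without SCARKO-jsd 2. The other bright Cx3cl1 probe set, 1415804_at, gave -0.01, with overlapping groups. Its receptor Cx3cr1, named after its values were seen and not a member by the naming rule, was 8.89, 9.54 and 9.12 in jsd and 9.84, 8.38 and 9.49 in SCARKO-jsd testes. SCARKO-jsd 2 was the lowest of all arrays there, and the difference was 0.05 ± 0.36 (SE; adjusted p = 0.955 by limma).

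The remaining leukocyte receptors above the limit did not separate. Ccr2, the receptor of monocytes for Ccl2 and Ccl12, was 7.37 to 7.44 in jsd and 7.35 to 7.51 in SCARKO-jsd testes, a difference of 0.01 ± 0.09 (SE; limma, Benjamini-Hochberg adjusted p = 0.975). Its 95% confidence interval ran from -0.19 to 0.21. The 3 other Ccr2 probe sets were dim and gave -0.44, -0.004 and -0.53. Cxcr3, the T cell receptor for the interferon-induced ligands Cxcl9, Cxcl10 and Cxcl11, was 6.71 to 6.78 in jsd and 6.64 to 6.83 in SCARKO-jsd testes, a difference of -0.04 ± 0.09 (SE; adjusted p = 0.852 by limma).

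**Figure D4:**
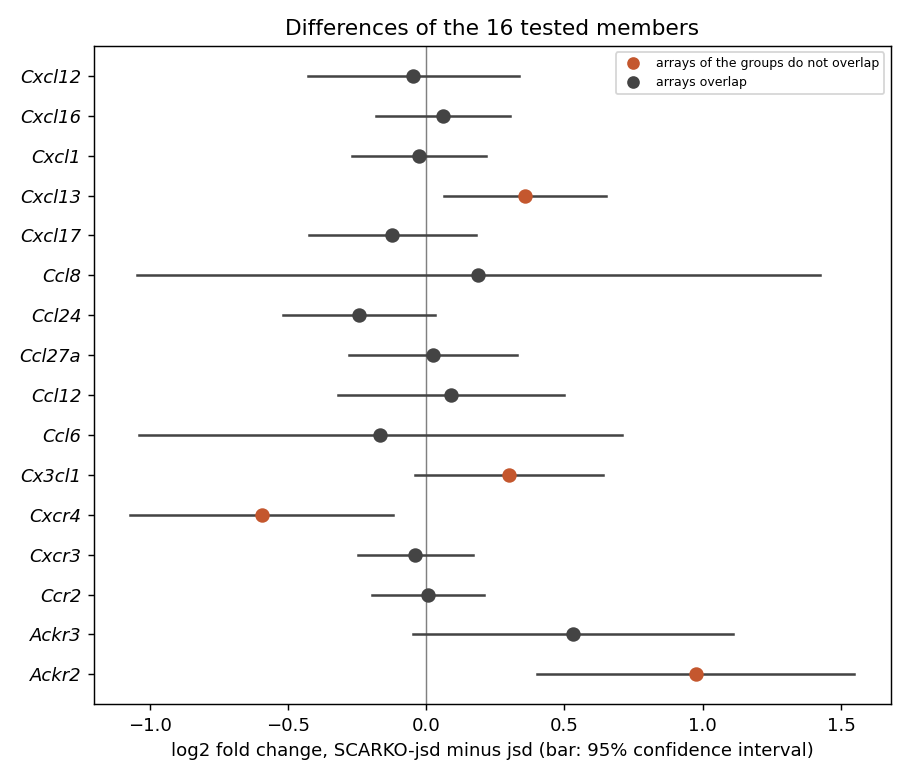
Log2 fold change (horizontal axis, SCARKO-jsd minus jsd) of each of the 16 tested members, with the 95% confidence interval from limma as a bar, not adjusted for the number of genes. The intervals of Ackr2, Cxcl13 and Cxcr4 leave out 0, those of Ccl8 and Ccl6 are the widest, and those of Ccr2 and Cxcr3 the narrowest.

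**Figure D5:**
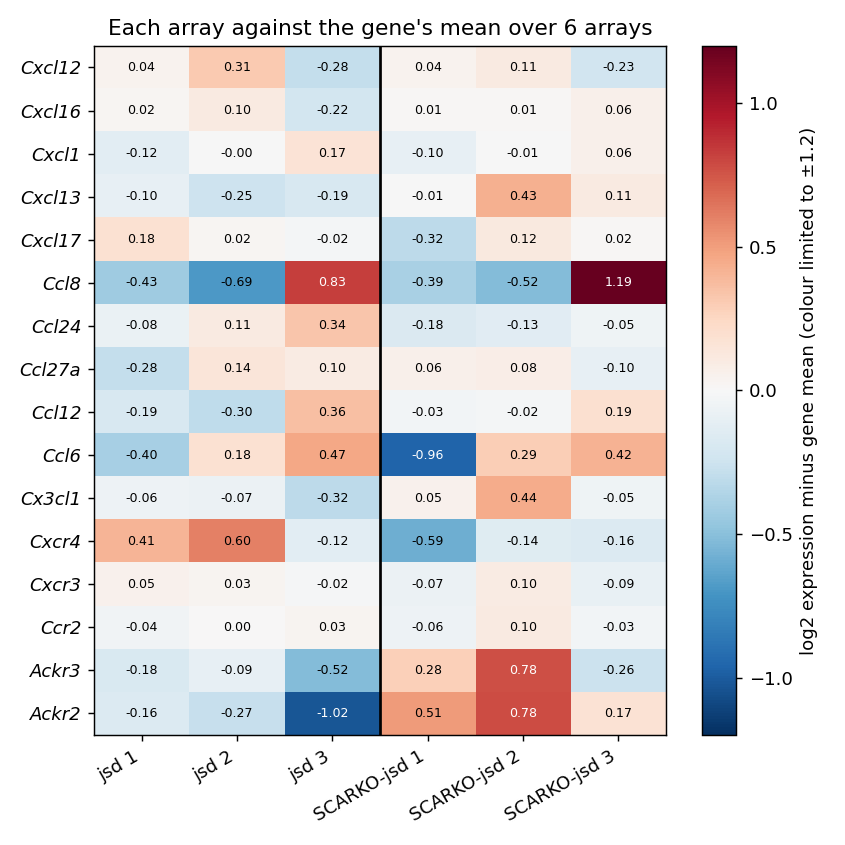
Each array's log2 expression minus the gene's mean over the 6 arrays, for the 16 tested members (rows) in jsd and SCARKO-jsd arrays (columns, divided by the black line). Ackr2 and Ackr3 are high in SCARKO-jsd 2, and Ccl8 is high in jsd 3 and SCARKO-jsd 3.

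The other 36 members were dim, with means over the 6 arrays from 3.28 to 6.51. Their differences ran from -0.18 to 0.27, with 21 higher and 15 lower and a median of 0.04. The groups' values were fully separate for 1 of them, the neutrophil attractant Cxcl5 (3.33, 3.46 and 3.44 in jsd, and 3.26, 3.32 and 3.19 in SCARKO-jsd testes), and for 14.4% of all dim genes. With dim genes included, limma called 0 of the 36 and found 0 at an unadjusted p under 0.05, against 14.5% of all genes, the lowest Benjamini-Hochberg adjusted p being 0.471, while 2.26% of all genes were called. By the higher of the group means, the brightest of the dim members were Ccr1, a receptor of monocytes and neutrophils (6.38 in jsd and 6.65 in SCARKO-jsd testes), and Ccl25, a thymus and gut chemokine (6.44 and 6.57). Ccr10 (6.36 and 6.34), Ccl9 (6.21 and 6.03), Ccl17 (5.98 and 6.08) and Ccl5 (6.05 and 5.91) followed. The nearest member on the other side of the limit was Cxcl17, with a mean over all arrays of 6.66, against 6.51 for Ccl25 and Ccr1. A dim signal sets no bound on low levels of these transcripts in rare cells.

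The dim members include the best-known inflammatory ligands. Ccl2, the main monocyte attractant of inflamed tissue, was 5.35, 5.77 and 5.58 in jsd and 5.35, 5.49 and 5.47 in SCARKO-jsd testes. Cxcl10, which interferon induces, was 5.70, 5.95 and 5.78 in jsd and 5.68, 6.02 and 5.87 in SCARKO-jsd testes. The groups overlapped for both. Neighbouring genes were not measured alike. In a row of 6 adjacent protein-coding genes on chromosome 11 (Ccl2, Ccl7, Ccl11, Ccl12, Ccl8 and Ccl1), 2 lay above the limit, Ccl12 and Ccl8. In a row of 5 on the same chromosome (Ccl5, Ccl9, Ccl6, Ccl3 and Ccl4), 1 did, Ccl6. In a row of 6 receptor genes on chromosome 9 (Cxcr6, Xcr1, Ccr1, Ccr1l1, Ccr3 and Ccr2), 1 did, Ccr2.

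A further 4 probe sets name several genes at once and so were not used for any member. The Ccl21 probe set (1419426_s_at), for ligands that guide dendritic cells into lymph vessels, was 9.07, 9.35 and 9.26 in jsd and 9.03, 9.11 and 8.71 in SCARKO-jsd testes. SCARKO-jsd 2 lay within the jsd range, and the difference was -0.28. The Ccl19 probe set gave -0.06, and the Ccl27 probe sets gave 0.15 and 0.03. These Ccl27 probe sets name the member Ccl27a among other genes. Their means over all arrays, 8.15 and 7.87, were above that of the probe set used for Ccl27a (7.48).

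In the pathway lists around the family, 3 of 84 genes tested fell, Rgs2, Nfkbiz and Il17ra, and 0 rose. That is 3.57%, the same share as over all genes tested, and so no result about these lists. Of 6 chemokine genes outside the naming rule above the limit, 0 passed by limma, with 1 at an unadjusted p under 0.05. That was Rarres2, which encodes the chemoattractant chemerin (-0.39 ± 0.14 SE, Benjamini-Hochberg adjusted p = 0.192). Pf4, a chemokine of platelets and macrophages, was at -0.15 and Gpr182, an atypical receptor of endothelium, at 0.11. A list of 31 genes around chemokine receptor signals holds some that carry the signal and some that limit it. Of these, Rgs2, which shortens G protein signals, fell from 11.29 to 10.82 (log2 means), by 0.47 ± 0.10 (SE, adjusted p = 0.0430 by limma). The other 30 did not pass. The other probe sets of Rgs2 gave -0.58, -0.68 and -0.45. An effect of Rgs2 on chemokine receptor signals was not tested. The focal adhesion kinase relative Ptk2b was at -1.02 ± 0.29 (adjusted p = 0.115), the cytokine receptor kinase Jak2 at -0.31 and the receptor kinase Grk5 at -0.55. The SCARKO-jsd mean of Ptk2b, 6.626, lay under the dim limit (6.642), so it was tested only through its higher jsd values. At an unadjusted p under 0.05 there were 6 of the 31, against 18.0% of all genes tested, and the list median was -0.04.

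Of 23 inducers around NF-kB, 2 fell, 21 did not pass and the list median was -0.07. Of all genes tested, 3.57% were called. At an unadjusted p under 0.05 there were 7 of the 23, against 18.0% of all genes tested. The groups were fully separate for 10 of the 23, against 24.6% of all. These counts cover both directions and include Nfkbiz and Tlr4, each under the dim limit in 1 group. The list was not tested as a set. Nfkbiz, a nuclear partner of NF-kB that some inflammatory genes need, was 7.47, 7.62 and 7.48 in jsd and 6.84, 6.46 and 6.53 in SCARKO-jsd testes. The groups were well apart, a fall of 0.91 ± 0.12 (SE; limma, Benjamini-Hochberg adjusted p = 0.00855), and its SCARKO-jsd mean (6.61) lay under the dim limit. Its other bright probe set gave -0.48. Il17ra, the receptor for the cytokine interleukin-17, was 8.996, 8.85 and 8.98 in jsd and 8.37, 8.45 and 8.31 in SCARKO-jsd testes. It fell by 0.56 ± 0.09 (SE, adjusted p = 0.0167), and its other probe set gave -0.83. Tlr4, the endotoxin receptor, was at 0.45, Il6st, the shared receptor of the interleukin-6 family, at -0.34, and the NF-kB inhibitor Nfkbia at -0.33, with adjusted p of 0.0845, 0.0897 and 0.120. The jsd mean of Tlr4, 6.43, lay under the dim limit, and a dim probe set of Tlr4 gave -0.022.

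Leaving out any of the jsd arrays or SCARKO-jsd 3 ended the call of Rgs2 (limma, Benjamini-Hochberg adjusted p up to 0.202), as did centring each array on its median (0.136) and testing dim genes too (0.0546). That of Il17ra ended without any 1 of the same arrays (up to 0.0986) and under median centring (0.0773). The Nfkbiz call ended without jsd 1 or jsd 2 (up to 0.0553). Of 14 interferon response genes 0 passed by limma, with 0 at an unadjusted p under 0.05 and a median of 0.003. Irf8, a myeloid transcription factor, was at 0.54, Ifngr2, a subunit of the receptor for interferon gamma, at -0.28 and Irf1 at 0.25. Of 10 genes linked to hypoxia and to Cxcl12 and Cxcr4, 0 passed, with 0 at an unadjusted p under 0.05. Of all genes tested, 3.57% were called and 18.0% had an unadjusted p under 0.05 by limma. In lists this short, 0 called is near that share, and neither list was tested as a set. Rbpj, the effector of Notch, was at -0.18, its target Hes1 at -0.28 and the hypoxia factor Epas1 at 0.34.

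Camp was the only neutrophil and mast cell marker above the limit. This antimicrobial peptide of neutrophil granules was 6.02, 6.03 and 6.92 in jsd and 7.60, 7.71 and 7.50 in SCARKO-jsd testes. The jsd mean, 6.32, lay under the dim limit, so Camp was tested only because its SCARKO-jsd values are high. It rose by 1.28 ± 0.23 (SE; limma, Benjamini-Hochberg adjusted p = 0.0293), while the other 11 markers of that list, S100a8 and S100a9 included, were dim, with differences of 0.19 and 0.22 for these. Leaving out jsd 1, jsd 2, SCARKO-jsd 1 or SCARKO-jsd 3 ended that call (adjusted p up to 0.136).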

How the data were processed

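RNA of whole testes was measured on 6 Affymetrix arrays, and the authors deposited log2 expression values, computed with RMA in affy (background correction, quantile normalization and probe set summary) per the submitters' processing notes. Their versions are not given in the sources used here. The values run from 2.58 to 14.84. Of 45101 probe sets, 64 are controls, 34945 name 1 gene, 932 several and 9160 none. The targeted gene is not reported here. Each gene took the probe set brightest on average among those that name 1 gene, and the lowest 40% of 18193 genes by mean were called dim. The remaining 10916 genes were tested between genotypes with limma 3.58.1 (R 4.3.3; lmFit and eBayes, two-sided, Benjamini-Hochberg threshold 0.05), and the members were read from that fit. Confidence intervals are 95% and not adjusted. The number of arrays, 3 a group, limits the precision. The script was tested on simulated data. Motifs were searched with Python 3.11.15, the kB consensus in its general form after a narrower form had been tried, and figures drawn with matplotlib 3.10.9. All 52 members matched a RefSeq symbol.

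Every member above the limit is named, with the 6 dim members that have the highest mean in either group and any dim member 1 log2 unit apart without overlap (none). Of each pathway or marker list the called genes and up to 3 with the smallest p could be named. Members and lists were chosen with earlier results of these data known. Alternatives covered the dim filter, probe set choice, scaling, variance model, array weights, replicate block and left-out arrays.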

Additional observations from a re-analysis of the deposited data

How the results depend on the processing

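The count of all genes called by limma was 390. It was 860 with arrays weighted by quality and from 78 (without jsd 1) to 768 (without SCARKO-jsd 2) with 1 array left out, and 119, 239 and 141 without jsd 2, jsd 3 and SCARKO-jsd 3. The count of members called was 0 under every alternative run except the replicate block, where it was 1 (Ackr2, adjusted p = 0.0108, beside 3.64% of all genes). The labels state no pairing behind the replicate numbers. Deviations from the group means correlated at -0.21, 0.23 and 0.24 for same-numbered arrays, and from -0.39 to 0.35 for arrays of different number. These few correlations cannot decide whether same-numbered arrays shared a handling step, which was not tested. The block also ended the call of Rgs2 (adjusted p = 0.0631). Over its alternatives the adjusted p of Ackr2 ran from 0.0108 to 0.281. Ptk2b, Grk5 and Nfkbia, not called, reached 0.0113, 0.0191 and 0.0413 in some alternative.

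For the differences that changed sign, the cause was not tested. With 1 array left out, they ran from -0.039 to 0.29 for Ccl12, -0.11 to 0.10 for Ccl27a, -0.42 to 0.27 for Ccl6, -0.36 to 0.65 for Ccl8 and -0.043 to 0.042 for Ccr2. They ran from -0.095 to 0.051 for Cxcl1, -0.20 to 0.10 for Cxcl12, -0.033 to 0.13 for Cxcl16, -0.21 to 0.005 for Cxcl17 and -0.25 to 0.48 for Cx3cr1. The change in the gap between probe sets ran from -0.21 to 0.017 for Ackr2 and -0.10 to 0.034 for Cxcl1. With array weights Ccl27a was -0.056, Ccr2 -0.021 and Cxcl1 0.0077. With median centring Cxcl1 was 0.017 and Cxcr3 0.004, and Cxcr3 was 9e-04 with a further quantile normalization. With all probe sets of a gene averaged, Cxcl12 was 0.15 and Cx3cr1 -0.027. Other probe sets gave 0.53 for Cxcl12, 0.060 for Ccl6, -0.012 for Cx3cl1, -0.44, -0.0036 and -0.53 for Ccr2, -0.11 for Cx3cr1, -0.059 for Epas1, 0.018 for Ifngr2 and -0.022 for Tlr4. With 3 arrays a group, the median standard error was 0.11 log2 units, and that of Ccl8 was 0.53. Differences near the standard error of a gene cannot be told from 0. Much larger ones, such as 0.97 for Ackr2, also missed the adjusted threshold in the fit used for the Results. Dim members have no usable bound.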
